A study of Mus musculus with 8 samples.

Results

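The imprinted genes described here are 10 genes of the mouse: Igf2, H19, Meg3, Igf2r, Peg3, Mest, Cdkn1c, Snrpn, Ndn and Grb10. Every probe set that the array's annotation gives 1 gene symbol, and that symbol 1 of these 10, was taken. A probe set pools the readings of several short probes aimed at 1 transcript. This gave 15 probe sets of 8 genes out of 12422 on the array. H19 was reached only by a probe set with a pair of symbols, 93028_at, annotated to H19 and to the microRNA gene Mir675. Its values are given under its identifier and are not counted with the 15. Snrpn had no probe set by this rule.

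The arrays carried testis RNA of house mice from 4 groups, each named after Mus musculus in the labels: musculus, castaneus, domesticus and ssp. Each group had 2 arrays, which the labels call technical replicates. The labels give no number, age or rearing of animals and leave ssp unexplained. No group is a control, and every p-value below measures only the spread between replicate arrays, not between animals.

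Values are intensities as deposited. A floor of 18.7, the 10th percentile over the 8 arrays, replaced lower values before the log2 step. The test took in probe sets that came up to the 40th percentile of an array, 94.7 to 118.9 intensity units, on 2 or more arrays. That left 8874 of all probe sets and 10 of the 15 imprinted ones, from 7 genes. Group values are geometric means of the 2 arrays, with the SD on the log2 scale (n = 2). A difference among the groups counted as called at a Benjamini-Hochberg adjusted p under 0.05 in limma's moderated F test, adjusted over all tested probe sets, together with a log2 range of group means of 1 or more. Pairs of groups were called by the same limits on limma's contrasts. The tissue carried its label: the summed intensity of 8 spermatid markers was 260064 and 204047 on the musculus arrays and 225812 to 336652 on the other 6.

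An imprinted gene is transcribed mainly from the copy inherited from 1 parent. The choice is set by DNA methylation laid down in the germ line of each parent, after the old marks are erased there. Many imprinted genes act on growth: paternally expressed Igf2 promotes it, while maternally expressed Igf2r, Cdkn1c and Grb10 restrain it. The array reads total transcript and does not tell the parental copies apart. In whole testis RNA, fewer cells of a type and less RNA per cell cannot be told apart either.

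Igf2 is transcribed from several starts, and Meg3 had the next widest range of group means after Igf2, so the reference sequences at the 4 listed starts of Igf2 and at 1 of the 2 listed starts of Meg3, the one with a TATA box, are shown. They are the RefSeq windows of build GRCm38.p6, which run from 250 bases before to 50 bases after a start and come from the reference strain, not from these mice. RefSeq windows were found for 8 of the 10 genes, all but H19 and Cdkn1c. Capitals mark the GC box GGGCGG, a binding motif of Sp1-like factors, and the TATA box TATAAA, each on either strand.
Igf2 start a, chr7:142666767-142667066, minus strand: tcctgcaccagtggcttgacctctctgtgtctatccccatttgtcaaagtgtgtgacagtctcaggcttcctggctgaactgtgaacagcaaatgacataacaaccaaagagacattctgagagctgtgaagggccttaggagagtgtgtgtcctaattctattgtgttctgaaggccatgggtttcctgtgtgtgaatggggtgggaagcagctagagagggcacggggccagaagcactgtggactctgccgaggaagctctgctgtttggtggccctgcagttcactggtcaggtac
Igf2 start b, chr7:142661222-142661521, minus strand: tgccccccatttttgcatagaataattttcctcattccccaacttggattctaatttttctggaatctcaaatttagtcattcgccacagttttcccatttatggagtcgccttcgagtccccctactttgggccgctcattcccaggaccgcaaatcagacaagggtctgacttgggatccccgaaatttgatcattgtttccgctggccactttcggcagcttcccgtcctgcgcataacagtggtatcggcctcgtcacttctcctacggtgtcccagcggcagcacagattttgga
Igf2 start c, chr7:142658755-142659054, minus strand: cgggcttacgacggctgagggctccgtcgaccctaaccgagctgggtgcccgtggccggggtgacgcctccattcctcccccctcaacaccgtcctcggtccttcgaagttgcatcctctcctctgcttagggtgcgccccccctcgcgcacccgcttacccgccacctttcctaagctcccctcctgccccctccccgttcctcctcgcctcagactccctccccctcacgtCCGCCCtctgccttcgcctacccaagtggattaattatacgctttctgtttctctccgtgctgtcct
Igf2 start d, chr7:142657447-142657746, minus strand: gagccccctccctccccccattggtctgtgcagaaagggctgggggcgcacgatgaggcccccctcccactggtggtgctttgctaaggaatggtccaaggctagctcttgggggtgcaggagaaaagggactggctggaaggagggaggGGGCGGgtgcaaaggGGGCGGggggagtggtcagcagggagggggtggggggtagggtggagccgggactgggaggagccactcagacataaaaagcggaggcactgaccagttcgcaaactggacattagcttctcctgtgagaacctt
Meg3 start a, chr12:109540746-109541045, plus strand: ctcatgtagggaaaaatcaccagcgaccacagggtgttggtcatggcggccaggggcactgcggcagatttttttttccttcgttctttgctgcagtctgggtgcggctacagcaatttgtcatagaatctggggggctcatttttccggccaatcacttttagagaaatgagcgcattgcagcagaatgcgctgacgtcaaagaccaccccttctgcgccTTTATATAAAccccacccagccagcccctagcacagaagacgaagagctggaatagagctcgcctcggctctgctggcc

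The 4 Igf2 windows differed in make-up. They held 2, 14, 24 and 7 CG dinucleotides for starts a, b, c and d, against a median of 7 over all 32851 windows. Start d had 2 GC boxes, 100 and 85 bases before the start, and start c had 1, at 17 bases on the opposite strand. Starts a and b had none. The Meg3 window shown held 13 CG dinucleotides and a pair of overlapping TATA boxes, at 29 and 25 bases before the start. The other Meg3 window, chr12:109545148-109545447 on the plus strand, held 1 CG dinucleotide and neither box. A GC box was present in 35.7% and a TATA box in 13.6% of all windows. Of the 18 windows of imprinted genes here, 8 held a GC box and 2 a TATA box. Neither Igf2 probe set tells which start a transcript used.

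Igf2 was the only 1 of these genes called different among the groups. It encodes insulin-like growth factor 2, a growth factor of the fetus that is made mostly from the paternal copy. Probe set 98623_g_at read 4215 and 6406 on the musculus arrays. It read 297 and 555 in castaneus, 691 and 470 in domesticus and 640.4 and 578 in ssp. Both musculus arrays lay above the other 6, as holds for 6.37% of all tested probe sets, and domesticus overlapped both castaneus and ssp, which lay apart from each other. The geometric means were 5196 in musculus, 406 in castaneus, 569.9 in domesticus and 608 in ssp, with SDs of 0.43, 0.64, 0.39 and 0.10 on the log2 scale (n = 2 each). The log2 difference was 3.68 from castaneus, 3.19 from domesticus and 3.09 from ssp, each musculus minus the named group and each with an SE of 0.41. The limma adjusted p of these contrasts was 0.0212, 0.0333 and 0.0383. The 95% intervals of the folds were 6.46 to 25.3 over castaneus, 4.60 to 18.1 over domesticus and 4.31 to 16.9 over ssp. Among the other 3 groups no Igf2 pair was called, with log2 differences of -0.49 for castaneus minus domesticus, -0.58 for castaneus minus ssp and -0.09 for domesticus minus ssp (limma adjusted p = 0.755, 0.665 and 0.962).

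The range of the group means of this probe set was 3.68 on the log2 scale (limma F test, adjusted p = 0.0324), wider than for 99.3% of tested probe sets. Of all tested probe sets 1.76% were called by the F test, so 1 call among 10 imprinted probe sets is a single gene's result. The 3 musculus contrasts each called 1 imprinted probe set, Igf2, higher in musculus, where 0.496% of all tested were called higher against castaneus, 0.316% against domesticus and 0.609% against ssp. In either direction these contrasts called 0.947%, 0.744% and 0.98% of all tested. Only 7 probe sets, 0.0789%, were called higher in musculus in all 3. The other pairs called 0 imprinted probe sets by limma, against 0.676% of all for castaneus and domesticus, 0.349% for castaneus and ssp and 0.687% for domesticus and ssp. The F test call did not survive the loss of any single array: with each of the 8 left out in turn the adjusted p was 0.067 to 0.146, while the range of group means stayed at 9.36 to 17.5-fold. The contrast with castaneus held in 2 of these 8 fits, those without an ssp array (limma adjusted p 0.0469 to 0.129 over the 8). The contrasts with domesticus (0.0564 to 0.22) and ssp (0.0642 to 0.167) held in 0 of 8.

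The other Igf2 probe set, 98622_at, gave no such signal. It read 17 and 9.8 in musculus, 16.6 and 15.9 in castaneus, 19.3 and 14.9 in domesticus and 54 and 15.1 in ssp. On 6 of 8 arrays it lay at or under the floor, both musculus arrays among them, and it was not tested. The annotation ties both Igf2 probe sets to the same sequence record. The g in the brighter one's identifier is the maker's sign for probes shared with another probe set's group of transcripts. The musculus difference of Igf2 therefore rests on 1 probe set.

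**Figure D1:**
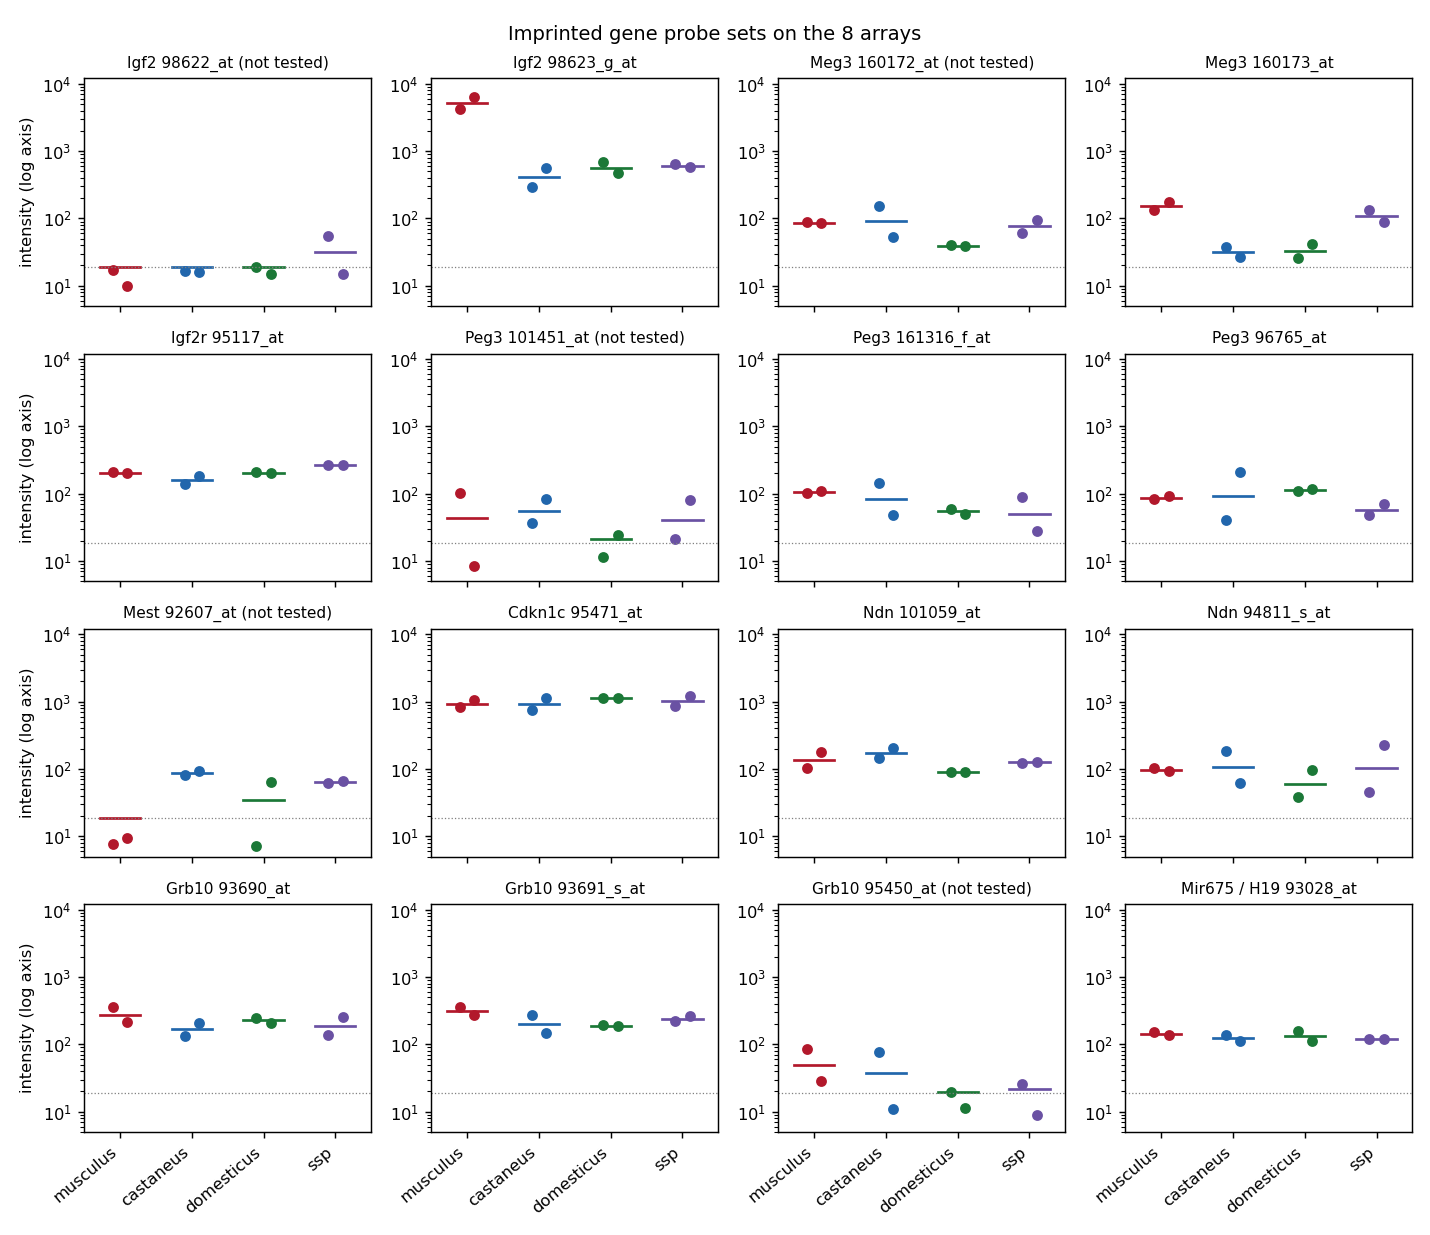
Intensity (log axis) of the 15 imprinted gene probe sets and of 93028_at, annotated to both Mir675 and H19, on the 8 arrays. Points are arrays, bars are geometric means of 2 arrays and the dotted line is the floor of 18.7. Igf2 98623_g_at stands at 4215 and 6406 in musculus and at 297 to 691 on the other 6 arrays.

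The H19 locus lies beside Igf2 and makes a long noncoding RNA from the maternal copy, and both genes share the same enhancers. Probe set 93028_at, annotated to H19 and to Mir675 within it, read 153 and 136 in musculus, 136 and 111 in castaneus, 156 and 111 in domesticus and 119 and 122 in ssp. Both musculus arrays lay above both ssp arrays, all other pairs of groups overlapped, and the range of group means was 0.26 on the log2 scale, wider than for only 6.34% of tested probe sets (limma F test, adjusted p = 0.909). The musculus minus castaneus difference was 0.23, with a 95% interval of -0.44 to 0.90. The musculus minus domesticus difference was 0.13, with an interval of -0.54 to 0.80. The musculus minus ssp difference was 0.26, with an interval of -0.41 to 0.93. All 3 intervals end below the Igf2 differences. However, 93028_at was dim, below the median intensity of each array (151 to 183). Whether it could show a change in H19 at that level was not tested.

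Along chromosome 7, none of the 10 tested genes on each side of Igf2 was called. Gene order was taken from the RefSeq table. Of their 22 probe sets 0 were called by limma's F test, 6 had their highest group mean in musculus and 6 their lowest. Their median range was 0.66 on the log2 scale, against 0.81 over all tested probe sets. Over all tested probe sets 1.76% were called, 25.6% were highest in musculus and 26.6% lowest, so these counts do not set the neighbours apart. The nearest of these were Mrpl23, a mitochondrial ribosomal protein gene, and Ins2, an insulin gene that is itself imprinted in the yolk sac. Mrpl23 averaged 380.0 in musculus, 359 in castaneus, 259 in domesticus and 379.6 in ssp. Ins2, by 161849_r_at, averaged 87.2 in musculus, 98.7 in castaneus, 123 in domesticus and 134 in ssp.

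Farther along, Ascl2, Cd81 and Slc22a18 had an unadjusted p under 0.05 in limma's F test, as had 15.9% of all tested probe sets, and were not called. Cd81, a tetraspanin of the cell surface, read 559 and 308 in musculus, 1594 and 915 in castaneus, 1468 and 906 in domesticus and 1598 and 982 in ssp (limma F test, adjusted p = 0.287, unadjusted p = 0.0408). Its lowest group mean was in musculus, where Igf2 was highest. Of all tested probe sets, 26.6% had their lowest group mean in musculus. Slc22a18, an organic cation transporter gene, read 330 and 338 in musculus, 224 and 244 in castaneus, 585 and 439 in domesticus and 232 and 228 in ssp (adjusted p = 0.162). Its highest group mean was in domesticus, as for 21.6% of all tested probe sets.

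**Figure D2:**
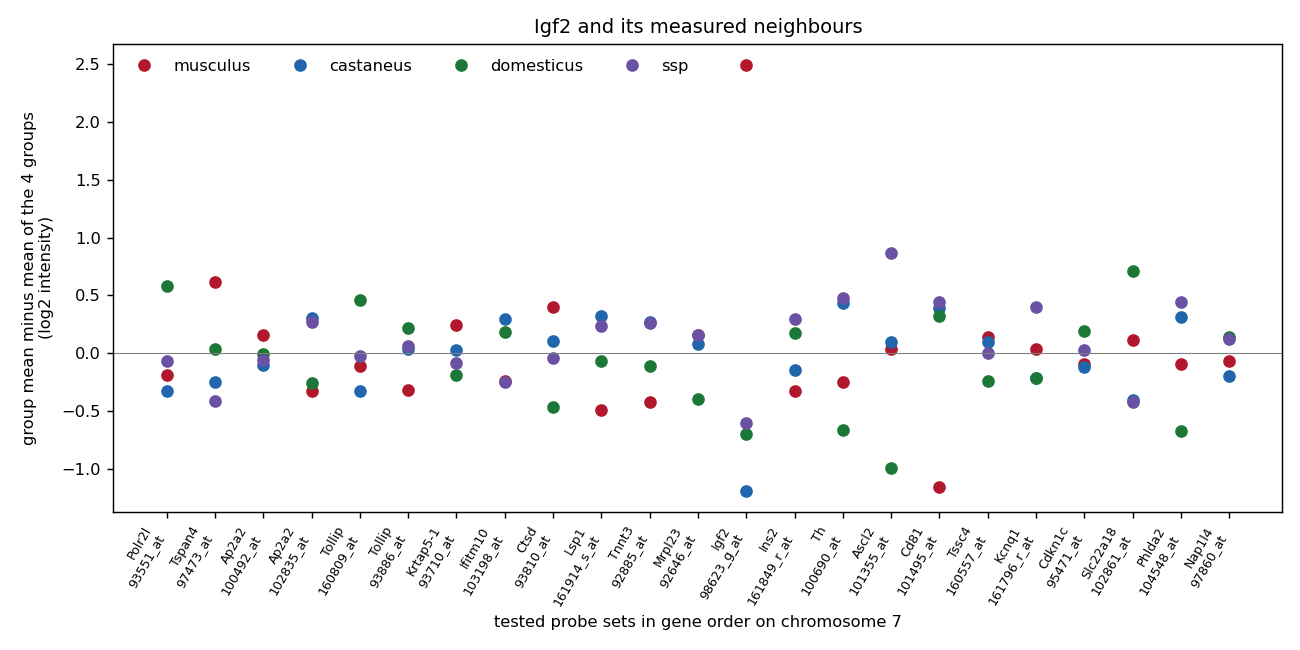
Group mean minus the mean of the 4 groups (log2 intensity) for the tested probe sets of Igf2 and of 10 genes on each side, in gene order on chromosome 7. The musculus point of Igf2 stands 2.49 above the mean of the groups, and the farthest neighbour point is that of Cd81 in musculus, at -1.15.

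Igf2r encodes the receptor that binds Igf2 and carries it to the lysosome, and in mouse it is made from the maternal copy. It read 209 and 201 in musculus, 142 and 185 in castaneus, 212 and 200.2 in domesticus and 269 and 270.3 in ssp. The ssp arrays were above, and the castaneus arrays below, the other 6, as holds for 6.42% and 5.43% of all tested probe sets. The widest difference was castaneus minus ssp, -0.74 on the log2 scale (SE 0.25), and limma did not call it (adjusted p = 0.341). The musculus minus castaneus difference was 0.34, musculus minus domesticus -0.01 and musculus minus ssp -0.40. The interval of the second of these was -0.60 to 0.59, so a difference of the size seen for Igf2 lies outside it.

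Of the other genes of the insulin-like growth factor system, Igfbp2 was called. The list held 20 genes, of which 11 were tested with 13 probe sets. Of these 1 probe set passed the F test, against 1.76% of all tested. The list's median range was 0.79 on the log2 scale, against 0.81 over all tested probe sets. Igfbp2 encodes a secreted protein that binds insulin-like growth factors in the fluid outside cells. It read 1748 and 1721 in musculus, 859 and 684 in castaneus, 263 and 269 in domesticus and 775 and 619 in ssp. Both musculus arrays were the highest and both domesticus arrays the lowest, as holds for 6.37% and 5.47% of all tested probe sets. The castaneus and ssp arrays overlapped.

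The range of the Igfbp2 group means was 2.71 on the log2 scale (limma F test, adjusted p = 0.0321). Of its 6 pairs only musculus against domesticus passed, at 6.53-fold (95% interval from 4.26 to 10.003, limma adjusted p = 0.016). Musculus stood 2.26-fold over castaneus (adjusted p = 0.115) and 2.50-fold over ssp (adjusted p = 0.0923). Leaving out any 1 of the 8 arrays ended the F test call of Igfbp2 as well, with adjusted p between 0.0582 and 0.128. The musculus against domesticus call held in 2 of these 8 fits, those without an ssp array, with adjusted p between 0.0334 and 0.148 over the 8 and folds of 6.46 to 6.60.

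Igf1 and the signalling receptors of the system were not called. Igf1, the related growth factor, averaged 555 in musculus, 511 in castaneus, 507 in domesticus and 702 in ssp by 95545_at (limma F test, adjusted p = 0.823). By its second probe set, 95546_g_at, it averaged 137 in musculus, 54.6 in castaneus, 228 in domesticus and 118 in ssp (adjusted p = 0.258). The probe sets thus ordered the groups differently. Igf1r, the receptor through which both growth factors signal, read 330 and 249 in musculus, 241 and 272 in castaneus, 329 and 227 in domesticus and 244 and 264 in ssp, with all groups overlapping. Insr, the insulin receptor, averaged 170.0 in musculus, 178 in castaneus, 109 in domesticus and 156 in ssp. Igf2bp1, which binds Igf2 transcripts, averaged 150.3, 137, 145 and 145 in the same order of groups, and its range of 0.14 on the log2 scale was small.

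Of the other binding proteins and partners, Igfbp4, Igfbp6 and the protease gene Htra1 had their highest group mean in musculus without passing. Htra1, whose product cleaves binding proteins, read 550 and 391 in musculus, 277 and 313 in castaneus, 260 and 276 in domesticus and 360 and 426 in ssp (limma F test, adjusted p = 0.383). Its musculus and ssp arrays overlapped. Igfals, which encodes the acid-labile subunit of the circulating complex, read 72.9 and 56.6 in musculus, 156 and 154 in castaneus, 59.6 and 55.8 in domesticus and 57.1 and 65 in ssp (adjusted p = 0.0871). Its highest group mean was in castaneus, as for 24.0% of all tested probe sets.

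**Figure D3:**
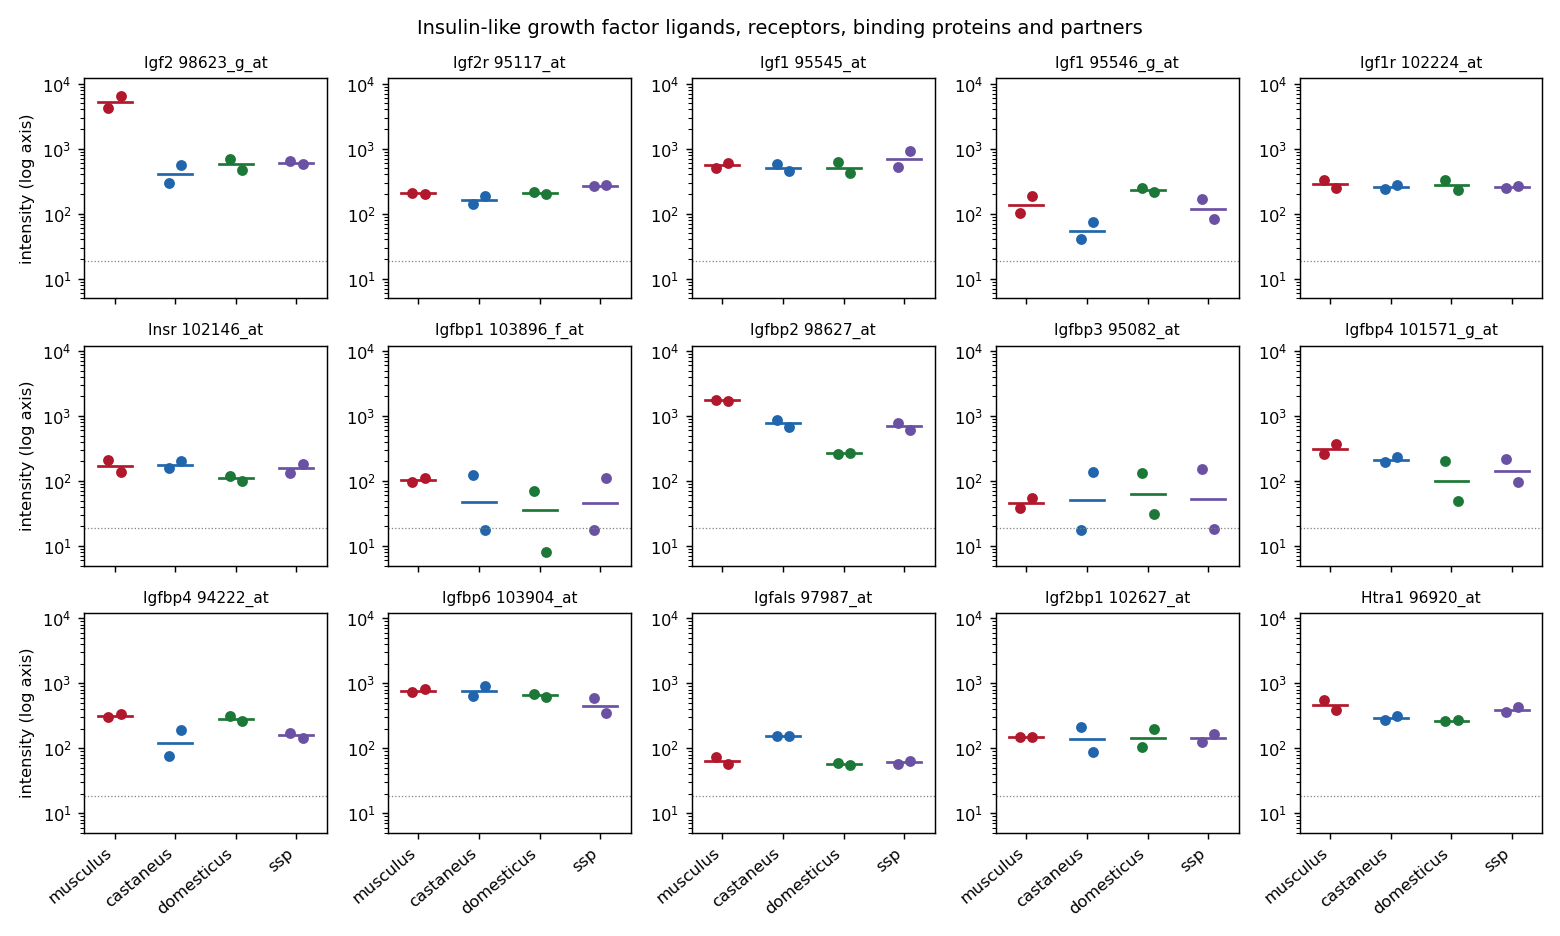
Intensity (log axis) of the tested probe sets of Igf2, Igf2r and 11 other genes of the insulin-like growth factor system on the 8 arrays. Points are arrays, bars are geometric means and the dotted line is the floor of 18.7. Igfbp2 stands highest in musculus, at 1748 and 1721, and lowest in domesticus, at 263 and 269.

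The growth-restraining genes Cdkn1c and Grb10 were not called. Cdkn1c encodes p57, an inhibitor of cyclin-dependent kinases, and is made from the maternal copy. It read 832 and 1059 in musculus, 744 and 1141 in castaneus, 1141 and 1152 in domesticus and 871 and 1201 in ssp. Castaneus and ssp overlapped every other group, while the musculus arrays lay below both domesticus arrays, and the range of 0.32 on the log2 scale was wider than for 10.3% of tested probe sets (limma F test, adjusted p = 0.900). The musculus minus castaneus difference was 0.03, with a 95% interval of -0.76 to 0.81. Cdkn1c lies in the same cluster of chromosome 7 as Igf2, under its own imprinting control region.

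Grb10 encodes an adaptor that dampens insulin and insulin-like growth factor signalling, and in mouse most tissues use its maternal copy. By 93690_at it read 353 and 217 in musculus, 135 and 206 in castaneus, 245 and 210.4 in domesticus and 138 and 257 in ssp. By 93691_s_at it read 362 and 277 in musculus, 274 and 148 in castaneus, 192 and 187 in domesticus and 219 and 261 in ssp. Both probe sets had their highest mean in musculus, with ranges of 0.73 and 0.74 on the log2 scale and replicates up to 1.86-fold apart, and limma called neither (F test, adjusted p = 0.715 and 0.593). Its other probe set, 95450_at, was at or under the floor on 3 arrays and not tested.

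Meg3 had the second widest range of these genes and missed the threshold. It is a long noncoding RNA made from the maternal copy on chromosome 12. Probe set 160173_at read 133 and 175 in musculus, 37 and 26.5 in castaneus, 25.5 and 41.8 in domesticus and 134 and 87.5 in ssp. The musculus and ssp arrays, which overlapped, all lay above the castaneus and domesticus arrays, which overlapped too. The musculus minus castaneus difference was 2.28 on the log2 scale (SE 0.39, limma adjusted p = 0.0627) and musculus minus domesticus 2.22 (adjusted p = 0.0835). The range of group means was wider than for 94.2% of tested probe sets (F test, adjusted p = 0.0653, unadjusted p = 0.00155).

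This probe set reached the filter's threshold on 2 musculus arrays and 1 ssp array, and on none of the others, so it entered the test through the groups where it was high. The second Meg3 probe set, 160172_at, did not follow it. It read 87.1 and 86.6 in musculus, 155 and 52.6 in castaneus, 39.9 and 38.9 in domesticus and 61.6 and 95.5 in ssp, and it was not tested. It was lowest in domesticus, while 1 castaneus array lay above and the other below all musculus and ssp arrays. Dlk1, the paternally expressed growth regulator next to Meg3, averaged 215 in musculus, 290.2 in castaneus, 377 in domesticus and 409 in ssp (limma F test, adjusted p = 0.555).

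The paternally expressed Peg3, Mest and Ndn were dim. Peg3 encodes a zinc finger protein. Its probe set 161316_f_at read 102 and 109 in musculus, 144 and 49 in castaneus, 60.2 and 50.7 in domesticus and 90.7 and 28.1 in ssp. Its probe set 96765_at read 82.5 and 93.2 in musculus, 41.3 and 212 in castaneus, 108 and 119 in domesticus and 48.2 and 70.2 in ssp. Replicates lay up to 3.23-fold apart by the first and 5.13-fold by the second, more than the 2.09-fold and 1.95-fold between the extreme group means, and limma called neither (adjusted p = 0.721 and 0.835). Another probe set, 101451_at, read 8.3 to 104 over the 8 arrays and was not tested.

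Mest encodes an enzyme of the alpha/beta hydrolase fold. Its probe set read 7.6 and 9.5 in musculus, 80.5 and 93 in castaneus, 7.2 and 63.5 in domesticus and 62 and 66.6 in ssp. Both musculus arrays were under the floor, which the castaneus mean exceeded by at least 4.63-fold. It reached the filter's threshold on no array, so the difference was not tested. The domesticus arrays fell on both sides.

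Ndn encodes necdin, a growth-suppressing protein of the region of chromosome 7 whose human counterpart is lost in Prader-Willi syndrome. By 101059_at it read 102 and 178 in musculus, 146 and 205 in castaneus, 89.6 and 88.8 in domesticus and 123 and 128 in ssp. The domesticus arrays were below the other 6, as holds for 5.47% of tested probe sets, and limma gave an adjusted p of 0.473. By 94811_s_at the replicates of ssp were 4.92-fold apart, at 46 and 226, and the groups overlapped (adjusted p = 0.909).

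Over the 10 tested probe sets of these genes, the median range of group means was 0.88 on the log2 scale, against 0.81 over all tested probe sets. Only that of Igf2 was called, 1 of 10 against the 1.76% of all tested. The highest group mean was in musculus for 5, in castaneus for 2, in domesticus for 2 and in ssp for 1. Over all tested probe sets the highest mean was in musculus for 25.6%, in castaneus for 24.0%, in domesticus for 21.6% and in ssp for 28.8%. The 5 that were highest in musculus came from 4 genes: Igf2, Meg3, Peg3 and Grb10 with 2. Of these, Meg3 160173_at and Peg3 161316_f_at passed the filter only with their musculus arrays counted. Peg3 96765_at and Ndn 94811_s_at passed it only through arrays of other groups. Mest, lowest in musculus, was not tested, so this tally depends on the filter.

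**Figure D4:**
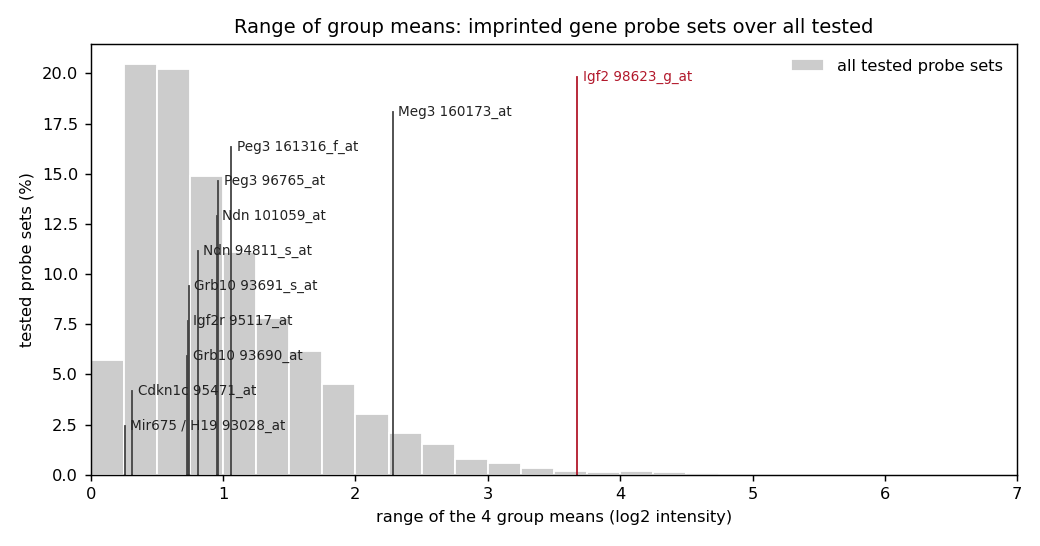
Range of the 4 group means (log2 intensity) for all 8874 tested probe sets, as a percent of probe sets per bin of 0.25, with the imprinted gene probe sets marked. Igf2 98623_g_at, in red, lies at 3.68, Meg3 160173_at at 2.28, and the other 8 imprinted probe sets between 0.32 and 1.06. The probe set of Mir675 and H19, 93028_at, is marked too, at 0.26.

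A longer list of 56 other imprinted genes gave no call. Of these, 22 genes were tested with 23 probe sets, and limma's F test called 0, with 6 at an unadjusted p under 0.05 and a median range of 1.04 on the log2 scale. By comparison, 15.9% of all tested probe sets had an unadjusted p under 0.05 and 1.76% were called. No pair of groups was called for any of the 23. Peg10, a retrotransposon-derived gene needed in the placenta, averaged 109 in musculus, 33.0 in castaneus, 76.8 in domesticus and 122 in ssp (adjusted p = 0.193). Ascl2, a transcription factor of the placenta whose gene lies near Igf2, averaged 88.1 in musculus, 92.1 in castaneus, 43.2 in domesticus and 157 in ssp (adjusted p = 0.217). Gnas, which encodes the stimulatory G protein alpha subunit, averaged 8913 in musculus, 6339 in castaneus, 6000.3 in domesticus and 5463 in ssp by its brightest probe set, 93271_s_at (adjusted p = 0.479). Its other tested probe set, 92672_at, read 22.2 and 25.4 in musculus, 182 and 124 in castaneus, 67.8 and 126 in domesticus and 33.5 and 181 in ssp (limma F test, adjusted p = 0.332). That probe set had its lowest group mean in musculus, where the brightest had its highest. Of all tested probe sets, 26.6% had their lowest group mean in musculus.

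Genes that set or read imprints were not called either. Of 20 listed, 8 were tested with 1 probe set each, 0 passed limma's F test and 1 had an unadjusted p under 0.05. Their median range was 0.56 on the log2 scale. Over all tested probe sets 1.76% were called and 15.9% had an unadjusted p under 0.05. Dnmt1, which copies DNA methylation at replication, averaged 1206 in musculus, 1371 in castaneus, 1179 in domesticus and 959 in ssp (adjusted p = 0.740). Ctcf, which binds the control region between H19 and Igf2, read 108 and 236 in musculus, 292 and 95 in castaneus, 336 and 315 in domesticus and 112 and 122 in ssp (adjusted p = 0.526). Trim28, a corepressor that keeps imprints in the embryo, averaged 19110 in musculus, 19224 in castaneus, 18045 in domesticus and 18499 in ssp, a range of 0.09 on the log2 scale. Tet1, an enzyme that oxidises methylated DNA, averaged 35.8 in musculus, 129 in castaneus, 110 in domesticus and 132 in ssp by 95247_at, with adjusted p = 0.197.

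The genes whose values over the 8 arrays were most like those of Igf2 were picked by their correlation with it. That they also stood highest in musculus follows from this choice. By Pearson correlation of log2 intensities, as a description over arrays that share RNA within a group, they were Olfr15 (r = 0.98), Ap5s1 (0.97), Ggh (0.96), Fkbp1b (0.96) and Ece1 (0.94). Fkbp1b, which binds calcium release channels, averaged 1103 in musculus, 157 in castaneus, 151 in domesticus and 144 in ssp. Ap5s1, of the AP-5 adaptor complex, averaged 260.1 in musculus, 71.7 in castaneus, 60.2 in domesticus and 75.0 in ssp. Olfr15, an olfactory receptor gene, averaged 161 in musculus, 64.9 in castaneus, 78.8 in domesticus and 78.1 in ssp and was not called (limma F test, adjusted p = 0.158).

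Among the cell type marker lists, those of Leydig cells, macrophages and striated muscle summed, like Igf2, highest on both musculus arrays. The summed intensity of 9 Leydig markers was 19603 and 23737 on the musculus arrays, against 6809 to 9453 on the other 6, or 2.61-fold by geometric means. Cyp17a1, at 8656 and 9709, and Fdx1, at 4399 and 7812, were the largest parts of the musculus sums. Over the 9 markers, the median difference of musculus from the mean of the other groups was 0.96 on the log2 scale. Of the 9, 7 had their highest group mean in musculus, against 25.6% of all tested probe sets. Limma's F test called 2 of them, against 1.76% of all tested, and none was at the floor on 4 or more arrays. Insl3, a peptide hormone of Leydig cells, averaged 140 in musculus, 58.2 in castaneus, 49.1 in domesticus and 149.7 in ssp, and Hsd3b6, a steroid-making enzyme, was highest in domesticus, at 222 in musculus, 53.6 in castaneus, 321 in domesticus and 116 in ssp. The called ones were Star, which carries cholesterol into mitochondria, and Cyp17a1, an enzyme of androgen synthesis. Cyp17a1 averaged 9168 in musculus, 3220 in castaneus, 2562 in domesticus and 1698 in ssp (limma F test, adjusted p = 0.0339). Outside musculus the markers did not share 1 order. Cyp17a1 was highest in castaneus, where Igf2 was lowest, but its castaneus and domesticus difference was not called (limma contrast, adjusted p = 0.737). Star averaged 607 in musculus, 190 in castaneus, 392 in domesticus and 119 in ssp. Cyp11a1, not called, was lowest in castaneus as Igf2 was, at 1730 in musculus, 268 in castaneus, 638 in domesticus and 529 in ssp. Macrophage markers summed to 3698 and 2857 in musculus, against 1641 to 2683 on the others, with 6 of 6 tested having their highest group mean in musculus, none called, and Adgre1 at the floor on at least 4 arrays. Among the 6 were near ties: Lyz2 averaged 303 in musculus and 302 in domesticus, and Csf1r 630 in musculus and 622 in ssp. Striated muscle markers summed to 1413 and 1249 in musculus, against 478 to 786. There 2 of 5 had their highest group mean in musculus, Myh7 alone was called, and Acta1 was at the floor on at least 4 arrays. Myh7 read 710 and 878 in musculus and 39.6 to 176 on the other 6, and was the largest part of the musculus sums. Over the 5 tested, the median difference of musculus from the mean of the other groups was -0.29 on the log2 scale. The part of these cell types in the Igf2 difference was not tested.

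For the other 9 marker lists the musculus arrays overlapped the rest. Peritubular and smooth muscle markers summed to 6374 and 6948 in musculus, against 5472 to 7292 on the other arrays. Actg2, at 4671 and 5591, was the largest part of these musculus sums. Fibroblast and connective tissue markers summed to 3618 and 3871, against 3741 to 5815. Sertoli markers summed to 3768 and 3209, against 2955 to 3818. Endothelial markers summed to 1125 and 1096, against 510.3 to 1167, and epididymis markers to 331 and 244, against 118 to 447. Adipose markers summed to 776 and 1067, against 626 to 1467, spermatocyte markers to 40394 and 38316, against 39317 to 52791, and spermatogonial markers to 2644 and 2316, against 1883 to 2546. Ldhc, at 31313 and 29093, was the largest part of the spermatocyte sums in musculus. Spermatid markers, given above, overlapped too. Pparg, Tie1, Defb1, Spink1 and Sycp3 were at the floor on 4 or more arrays.

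**Figure D5:**
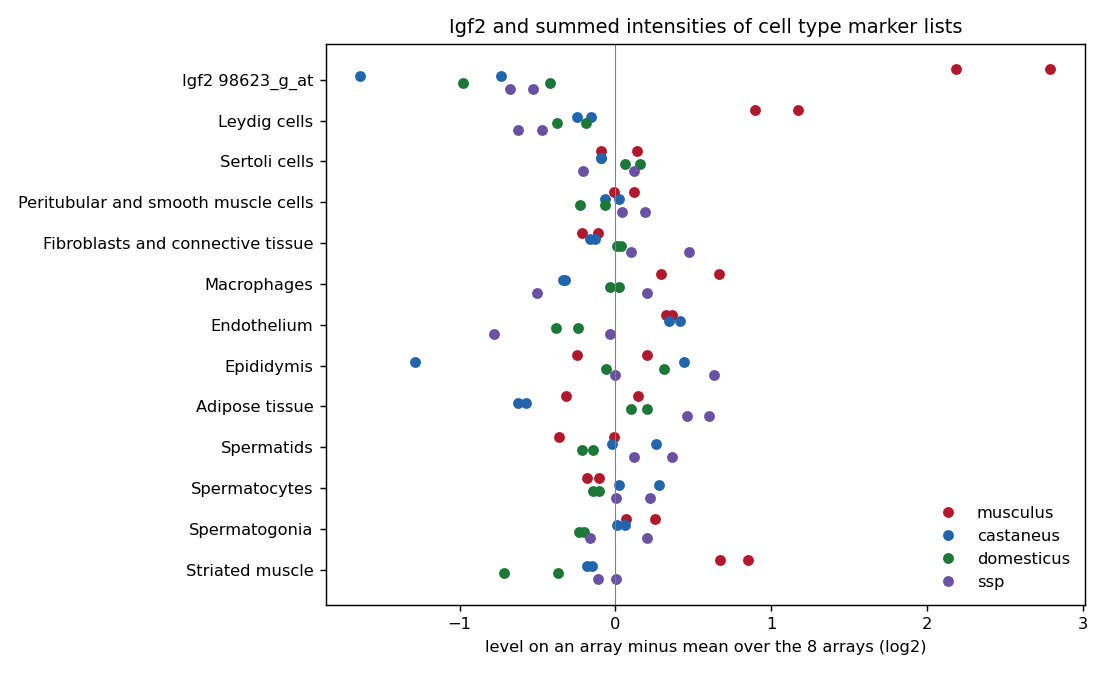
Igf2 98623_g_at and the summed intensity of 12 cell type marker lists on each array, as log2 difference from the mean of the 8 arrays. Points are arrays. Both musculus arrays stand above the other 6 for Igf2, Leydig cells, macrophages and striated muscle. The Leydig cell sum is 2.61-fold higher in musculus, with Cyp17a1 its largest part there. Myh7 is the largest part of the striated muscle sum in musculus.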

How the data were processed

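The data are linear intensities of 12422 probe sets on 8 arrays, deposited by the authors as 1 value per probe set and array. RNA was hybridised to an Affymetrix chip, per the labels. The summary and scaling of probes are not stated in the labels. The mean after trimming 2% at each end was nearly equal on all arrays, and array medians were 151 to 183. Precision is limited by having 2 arrays a group. Symbols came from the platform annotation, updated through the Entrez number to RefSeq (GRCm38.p6, used for names and gene order). Of all probe sets 10833 had 1 symbol, 396 several and 1193 none, and 10817 matched RefSeq.

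From the deposited intensities, log2 of the floored values was fitted with limma 3.58.1 in R 4.3.3, 1 mean per group over 8 arrays, with 4 residual degrees of freedom, 2.34 prior ones and a prior log2 SD of 0.36. The 6 pairs of groups were contrasts of this fit, adjusted within each pair. The fit was tested on simulated data. Intervals are 95% t intervals with moderated variance, not adjusted for the number of pairs.

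Every probe set of the listed genes is reported. Other imprinted genes, growth factor genes and imprint genes come from lists, and the 5 genes most like Igf2 from correlation. Members, lists and markers were chosen with earlier results of these data known. In the text, other imprinted and pathway genes without a call are examples named after their values were seen. Alternatives were the filter, floor, pseudocount, scaling between arrays, variance model, replicate number as a block, and each array left out.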

Additional observations from a re-analysis of the deposited data

How the results depend on the processing

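The count of all probe sets called by limma's F test was 156. It was 31 without a filter, 309 with the filter at the 60th percentile, 383 with a trended and robust variance model, 42 with the replicate number as a block, and 7 to 43 with 1 array left out, where 1111 to 1484 had an unadjusted p under 0.05. Among the imprinted genes the F test called 1 probe set, that of Igf2. It called 0 without a filter, 0 with the replicate number as a block and 0 in each fit that left out 1 array. The pair contrasts of these genes gave 3 calls, all of Igf2. They gave 0 without a filter, 1 with the replicate number as a block (musculus against castaneus, adjusted p = 0.0467, with 0.077 against domesticus and 0.0742 against ssp), 0 when a pair was fitted on its own 4 arrays, and 0 to 1 with 1 array left out, the 1 being musculus against castaneus without ssp replicate 1 or 2.

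The Igf2 difference was positive against each group in all 17 alternatives, at 3.23 to 4.13 log2 over castaneus, 2.89 to 3.49 over domesticus and 2.79 to 3.40 over ssp. Without a filter more probe sets are tested, 12422, and its F test adjusted p was 0.0656. With the block it was 0.0691. The F test call of Igfbp2 was lost without a filter (0.0572) and with the block (0.0551), and its musculus against domesticus call on its own 4 arrays (0.0965). With the other floor, pseudocount, either scaling, the stricter filter and the other variance model the F test calls of Igf2 and Igfbp2 held. Meg3 160173_at did not pass under any alternative tried (adjusted p 0.0618 to 0.214), and at the 60th percentile filter it was not tested. Same-numbered arrays deviated together weakly, with correlations of 0.0263 to 0.171 over the 6 pairs of groups, all positive. The labels do not say whether arrays of the same number share a batch, so a batch by number is not excluded. A group left with 1 array was assumed to vary like the others. Intensities near the floor, as for Mest and Igf2 98622_at, limit what can be compared.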
